A study of Mus musculus with 8 samples.

Results

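The transcripts described here are 10 genes by which dendritic cells are recognized: Flt3, Zbtb46, Irf8, Batf3, Clec9a, Xcr1, Itgae, Cd209a, Clec10a and Fscn1. They were listed by name, matched by symbol to the Ensembl identifiers of the count tables, and compared between vehicle and HPβCD infarcts. Each of the 10 matched exactly 1 of 46078 identifiers, and 10 of 10 passed the filter on low counts that left 14736 genes for testing. None of the 10 differed detectably between the treatments. edgeR called 0 of 10 at an adjusted p under 0.05, a count near the share of 1.95% of all tested genes. The vehicle and HPβCD animals overlapped for 10 of 10 members, while the groups did not overlap for 16.8% of all tested genes.

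Bulk RNA sequencing measured polyadenylated transcripts in the infarcts of 8 wild type male C57BL/6J mice, 18 months old, each of which had undergone DH stroke (occlusion of the distal middle cerebral artery, then hypoxia). HPβCD (2-hydroxypropyl-β-cyclodextrin, a ring of sugar units that takes up cholesterol and other lipids) was given subcutaneously at 4 g/kg to 4 mice, and PBS as vehicle to the other 4, in 3 injections per week for 6 weeks from 1 week after stroke. Infarcts were collected at 7 weeks after stroke, so every animal had an old infarct and none was without stroke. They were recognized by eye and cut out by hand, and the share of neighboring cortex in a piece was therefore not fixed. Total gene counts were 32.9 M in vehicle animal 2 and between 16.6 M and 19.4 M in the other 7 libraries.

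Dendritic cells take up debris and present its fragments to T lymphocytes. They arise from precursors that depend on the receptor FLT3, and 2 classical kinds are distinguished: type 1 cells, which need BATF3 and IRF8 and take up dead cells through CLEC9A, and type 2 cells, which prime mainly helper T lymphocytes. The healthy brain holds few of them, mostly in its coverings, and they enter the tissue after stroke. Several of the 10 are also made by other cells of an infarct: Irf8 is also made by microglia, macrophages and B lymphocytes, Itgae by T lymphocytes, Clec10a and Cd209a by some macrophages and monocyte-derived cells, Zbtb46 by endothelium, and Fscn1 by neurons.

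Promoter sequences are shown for 4 members: Clec9a and Xcr1, the surface receptors of type 1 cells with the highest fold changes of the 10, and Zbtb46 and Cd209a, the members whose windows held a searched motif. The sequences are those of RefSeq on GRCm38.p6, read along the strand of the gene from 250 bases before to 20 bases after its start, and 8 of 10 members had an entry. Windows lie at chr6:129408612-129408881 (plus strand, Clec9a), chr9:123862010-123862279 (minus strand, Xcr1), chr2:181424369-181424638 (minus strand, Zbtb46) and chr8:3748965-3749234 (minus strand, Cd209a). The start used for Zbtb46 falls within the gene body of the GENCODE model. Capitals mark a motif match.
Clec9a: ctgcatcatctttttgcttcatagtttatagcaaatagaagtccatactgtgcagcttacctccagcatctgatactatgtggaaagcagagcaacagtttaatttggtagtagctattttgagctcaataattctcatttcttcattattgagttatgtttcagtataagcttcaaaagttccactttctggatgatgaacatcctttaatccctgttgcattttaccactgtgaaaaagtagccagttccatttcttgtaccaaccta
Xcr1: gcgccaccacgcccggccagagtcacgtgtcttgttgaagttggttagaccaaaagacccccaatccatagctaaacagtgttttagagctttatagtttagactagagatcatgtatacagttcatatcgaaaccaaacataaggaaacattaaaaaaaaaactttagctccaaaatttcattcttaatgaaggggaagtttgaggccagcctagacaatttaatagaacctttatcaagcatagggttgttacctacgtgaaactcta
Zbtb46: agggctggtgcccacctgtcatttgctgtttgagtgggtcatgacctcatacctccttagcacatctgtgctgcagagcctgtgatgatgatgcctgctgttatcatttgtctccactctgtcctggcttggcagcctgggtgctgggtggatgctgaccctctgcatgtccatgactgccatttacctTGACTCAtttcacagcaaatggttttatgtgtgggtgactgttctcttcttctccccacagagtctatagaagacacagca
Cd209a: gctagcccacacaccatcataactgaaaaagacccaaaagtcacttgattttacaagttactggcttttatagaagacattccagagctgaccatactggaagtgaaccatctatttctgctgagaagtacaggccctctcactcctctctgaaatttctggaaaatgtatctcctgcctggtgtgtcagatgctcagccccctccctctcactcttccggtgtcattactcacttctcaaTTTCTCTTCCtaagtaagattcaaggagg

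The motifs were chosen after the files were seen and searched on both strands over 300 bases (to 50 bases after the start). They were the AP-1 motif TGANTCA, bound by BATF and JUN proteins, and a pair of motifs bound by IRF8. In the ETS-IRF motif, which IRF8 binds together with PU.1, the half-site GGAA is followed at a distance of 2 bases by the half-site GAAA, and in the ISRE motif both half-sites are GAAA at that distance. TGACTCA began at -61 from the start of Zbtb46 and reads as the AP-1 motif on both strands. TTTCTCTTCC began at -9 from the start of Cd209a and is the ETS-IRF motif read on the other strand. Among 32851 RefSeq promoters of the same length, 7.81% held the AP-1 letters, 2.72% the ETS-IRF letters and 3.44% the ISRE letters, the last of which were in no member's window. A match describes letters only, and binding was not measured.

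Levels of different members were compared per length, as RPKM computed here from the counts and the exon lengths of the GENCODE M21 annotation (mean ± SD, n = 8). Fscn1 and Irf8 were the most abundant at 22.3 ± 11.4 and 15.0 ± 3.63 RPKM. The type 1 receptor gene Clec9a followed at 3.11 ± 1.09 RPKM, and the type 2 lectin genes Clec10a and Cd209a were at 2.5 ± 0.533 and 2.24 ± 0.528. The other 5 lay between 0.651 RPKM (Flt3) and 1.45 RPKM (Xcr1), with Zbtb46, Batf3 and Itgae between them. Only the step from Irf8 to Clec9a separated neighbors in this order whose ranges over the 8 libraries did not overlap. Every member had reads in every library, and the smallest number was 14 counts for Batf3 in HPβCD animal 4.

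Flt3 and Zbtb46 mark dendritic cells of both classical kinds. Coordinates are those of the gene on GRCm38. Flt3, the receptor for the growth factor of dendritic cell precursors (chr5:147330741-147400489), measured 3.0, 4.56, 3.15 and 4.25 CPM in vehicle animals 1 to 4 and 4.71, 3.43, 6.49 and 2.55 CPM in HPβCD animals 1 to 4. The HPβCD group held both the highest and the lowest library of the 8. Its log2 fold change of HPβCD against vehicle was 0.20 ± 0.31 (SE; 95% interval -0.51 to 0.91; edgeR adjusted p = 0.728). Zbtb46, a transcription repressor of the classical lineage (chr2:181387762-181459426), was the steadiest member, at 10.5, 12.1, 10.4 and 14 CPM in vehicle infarcts and 13.6, 11.3, 11.2 and 12 CPM in HPβCD infarcts. All 4 HPβCD values fell within the range of the vehicle animals. The fold change was 0.03 ± 0.16 (95% interval -0.33 to 0.39; edgeR adjusted p = 0.920), an interval that holds changes from 0.796-fold to 1.31-fold. In bulk tissue, a difference in the number of dendritic cells and a difference in RNA per cell cannot be told apart, which applies to every value that follows.

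**Figure D1:**
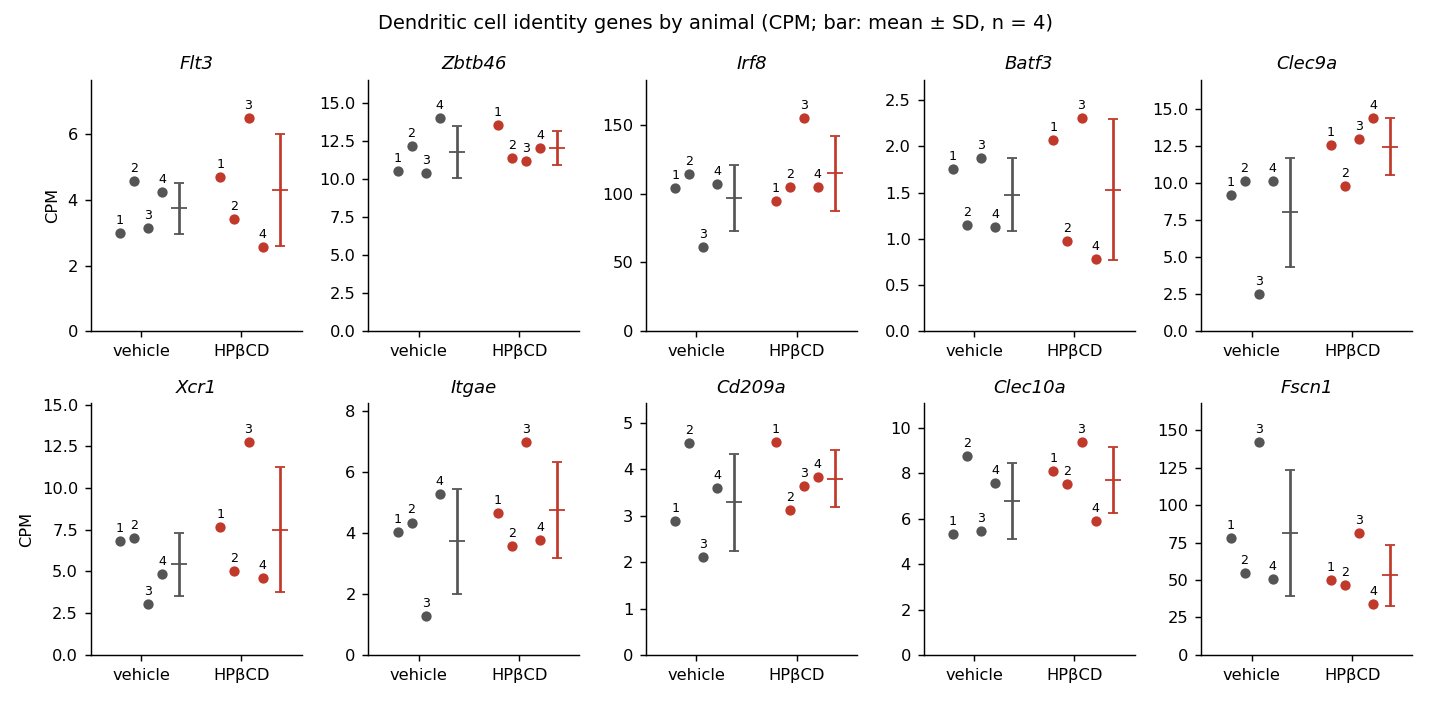
CPM (gene counts scaled to a common library total with TMM factors) of the 10 members in each animal, 1 panel per gene with its own linear axis from 0. Points are animals labelled by number, gray for vehicle and red for HPβCD, and bars give mean ± SD (n = 4). The 2 groups overlap in each panel, vehicle animal 3 is at 2.54 CPM for Clec9a and 142 CPM for Fscn1, and HPβCD animal 3 is at 155 CPM for Irf8.

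Irf8 and Batf3 encode transcription factors that type 1 cells require. Irf8 (chr8:120736358-120756694) was at 104, 114, 61.3 and 107 CPM in vehicle infarcts and 94.6, 105, 155 and 105 CPM in HPβCD infarcts. Apart from vehicle animal 3, the lowest, and HPβCD animal 3, the highest, the other 6 animals lay between 94.6 and 114 CPM. The log2 fold change was 0.25 ± 0.23 (95% interval -0.28 to 0.77; edgeR adjusted p = 0.537). Batf3 (chr1:191097847-191108945) was the member with the fewest reads, 14 to 43 counts per library, and measured 1.75, 1.15, 1.88 and 1.13 CPM with vehicle and 2.07, 0.980, 2.31 and 0.777 CPM with HPβCD. Animals 1 and 3 were the higher ones in both groups. Counting error alone gave a coefficient of variation of 18.5% in the vehicle group, where the observed one was 26.7%. In the HPβCD group these were 21.5% and 50.0%. With a log2 fold change of 0.07 ± 0.40, its 95% interval ran from -0.85 to 0.98 (edgeR adjusted p = 0.936), so neither a fall to 0.555-fold nor a rise to 1.97-fold was outside it.

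Clec9a, Xcr1 and Itgae are surface genes of type 1 cells. Clec9a, a receptor for actin exposed by dead cells (chr6:129408862-129424763), was at 9.22, 10.1, 2.54 and 10.2 CPM in vehicle infarcts and at 12.6, 9.80, 13 and 14.4 CPM in HPβCD infarcts. Of the 4 HPβCD animals, 3 exceeded all vehicle animals, and HPβCD animal 2 lay below 2 of them. The means were 8.01 ± 3.67 and 12.4 ± 1.92 CPM (SD, n = 4), and the log2 fold change of 0.63 ± 0.39 did not pass the test (95% interval -0.24 to 1.51; edgeR adjusted p = 0.322). Of the exon bases of Clec9a, 5.6% overlap Clec1b on the same strand.

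Xcr1, the receptor for the chemokine XCL1 (chr9:123852315-123862029), measured 6.84, 7.00, 3.03 and 4.84 CPM with vehicle and 7.64, 5.02, 12.8 and 4.61 CPM with HPβCD. The 3 HPβCD animals other than animal 3 spanned 4.61 to 7.64 CPM, close to the vehicle range. Its log2 fold change was 0.47 ± 0.39 (95% interval -0.42 to 1.35; edgeR adjusted p = 0.479). Itgae, the αE integrin chain CD103 that binds E-cadherin (chr11:73090583-73147446), was at 4.02, 4.33, 1.27 and 5.27 CPM with vehicle and 4.65, 3.55, 6.98 and 3.77 CPM with HPβCD. Again the lowest value was in vehicle animal 3 and the highest in HPβCD animal 3, with a log2 fold change of 0.34 ± 0.42 (95% interval -0.60 to 1.29; edgeR adjusted p = 0.635).

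Cd209a and Clec10a, both C-type lectins of type 2 and monocyte-derived cells, showed the same lack of separation. Cd209a (chr8:3743397-3748984) was at 2.88, 4.56, 2.12 and 3.60 CPM in vehicle infarcts and 4.6, 3.12, 3.65 and 3.83 CPM in HPβCD infarcts, and 3 of the 4 HPβCD values fell within the vehicle range. The log2 fold change was 0.20 ± 0.27 (95% interval -0.42 to 0.82; edgeR adjusted p = 0.679). Clec10a (chr11:70156197-70170834) was at 5.32, 8.78, 5.45 and 7.58 CPM with vehicle and 8.10, 7.54, 9.39 and 5.88 CPM with HPβCD. Vehicle animals 1 and 3 were the lowest of all 8. The log2 fold change was 0.19 ± 0.23 (95% interval -0.34 to 0.72; edgeR adjusted p = 0.652).

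Fscn1, which encodes the actin-bundling protein fascin of mature dendritic cells (chr5:142960343-142973185), was the single member with a lower mean after HPβCD. It measured 78.1, 54.8, 142 and 50.8 CPM in vehicle infarcts and 50.0, 46.6, 81.7 and 34.0 CPM in HPβCD infarcts. Vehicle animals 1, 2 and 4 were within the HPβCD range, and vehicle animal 3 was above it. Its log2 fold change was -0.62 ± 0.38 (95% interval -1.49 to 0.25; edgeR adjusted p = 0.329). The summed level of 8 neuron genes reached 924 CPM in animal 1 and 5771 CPM in animal 3 of the vehicle group, against 11.7 to 33.6 CPM in the other vehicle animals and 3.37 to 74.4 CPM with HPβCD. Of the 8, Nefm was at 0 in HPβCD animals 1, 2 and 4. The order differed elsewhere: HPβCD animal 3 was at 81.7 CPM of Fscn1 with a neuron sum of 74.4 CPM, above vehicle animal 1. HPβCD animal 4, the lowest for Fscn1, had a neuron sum of 13.3 CPM, the second highest with HPβCD. With vehicle animals 1 and 3 left out, which are also the 2 highest vehicle animals for Fscn1, its log2 fold change was 0.02 (95% interval -0.68 to 0.72; edgeR adjusted p = 0.973). The part of neuron transcripts in the level of Fscn1 was not tested.

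**Figure D2:**
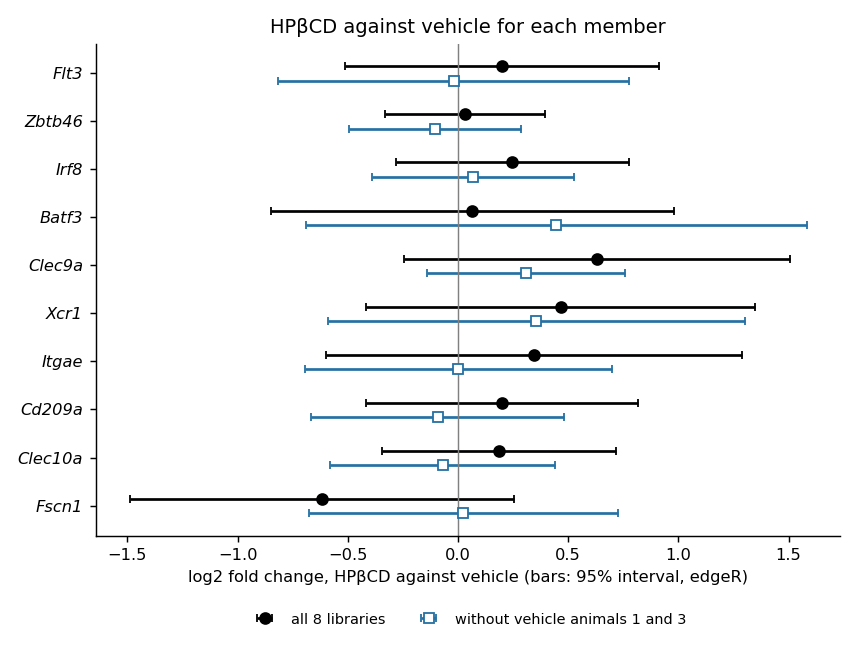
log2 fold change of HPβCD against vehicle for each member (points, with 95% intervals from edgeR as bars), for all 8 libraries in black and without vehicle animals 1 and 3 in blue. All 20 intervals include 0. Fscn1 moves from -0.62 to 0.02 between the fits and Clec9a from 0.63 to 0.31.

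Counted over the list, edgeR called 0 of 10 members at an adjusted p under 0.05, against 1.95% of all tested genes (173 higher and 114 lower with HPβCD). At an unadjusted p under 0.05 the count was also 0 of 10, while 27.8% of all tested genes passed. DESeq2 called 0 of 10 members and 17% of the genes it tested, and limma-voom 0 of 10 and 21.9%. Groups did not overlap in CPM for 0 of 10 members and for 16.8% of all tested genes. The log2 fold change was above 0 for 9 of 10 members with a median of 0.20, beside a median of -0.05 over all tested genes, of which 54.1% were below 0. That 9 of 10 had the same sign does not amount to 9 observations, because the genes share animals: without vehicle animals 1 and 3 the value was below 0 for Flt3, Zbtb46, Cd209a and Clec10a.

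Single animals set much of the pattern. Vehicle animal 3 was the lowest of the 8 for 6 members and the highest for Fscn1, and HPβCD animal 3 was the highest of the 8 for 6 members. HPβCD animal 4 was the lowest of the 8 for 3 members, Flt3, Batf3 and Fscn1. The summed level of Clec9a and Xcr1 was 16.1, 17.1, 5.57 and 15.0 CPM with vehicle and 20.2, 14.8, 25.8 and 19.0 CPM with HPβCD. That of Cd209a and Clec10a was 8.20, 13.3, 7.57 and 11.2 CPM with vehicle and 12.7, 10.7, 13 and 9.71 CPM with HPβCD. In both sums vehicle animal 3 was the lowest library. It also had the largest neuron sum, the part of which in these values was not tested. Without vehicle animals 1 and 3, the log2 fold change of Clec9a was 0.31 (95% interval -0.14 to 0.76; edgeR adjusted p = 0.387), of Xcr1 0.36 and of Irf8 0.07.

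**Figure D3:**
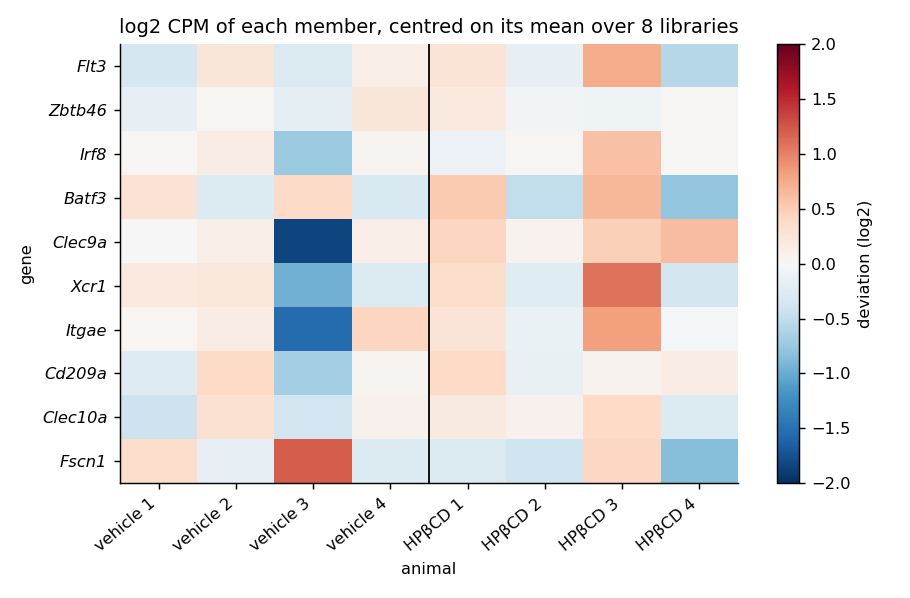
log2 CPM of each member (rows) in each animal (columns) as the deviation from the mean of that gene over the 8 libraries, from blue (lower) to red (higher). In the column of vehicle animal 3, Clec9a and Itgae are the deepest blue and Fscn1 the deepest red, and in that of HPβCD animal 3 Zbtb46 alone is below its mean.

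Pairs of members were compared as a description of the libraries, with Pearson r of log2 CPM over 8 libraries that come from 2 groups and share their composition. The highest was 0.93 between Itgae and Irf8, followed by 0.90 between Clec9a and Itgae and 0.89 between Flt3 and Clec10a. Fscn1 ran opposite to most, down to -0.80 with Clec9a, but was at 0.71 with Batf3 and 0.12 with Flt3. Among 13215 other genes averaging 1 CPM or more, Irf8 was most like Cd47, an inhibitory signal of phagocytosis (r = 0.99), and Flt3 most like Cd14, a lipopolysaccharide co-receptor of monocytes and macrophages (r = 0.96). The most similar genes were Prss35 for Clec9a (0.98), Ptpro for Xcr1 (0.98), Rnd3 for Itgae (0.98) and Lmbr1l for Batf3 (0.96). For Zbtb46 it was Insig2 (0.99), for Cd209a Khnyn (0.99), for Clec10a Zfp951 (0.99) and for Fscn1 Smap2 (0.98). Each is the maximum of a search, so the size of r carries no further information.

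To set the members against leukocytes as a whole, their counts were expressed per 1000 counts of Ptprc, the gene of the pan-leukocyte phosphatase CD45. Ptprc itself was at 321, 457, 158 and 265 CPM in vehicle infarcts and 207, 199, 295 and 234 CPM in HPβCD infarcts (log2 fold change -0.36; edgeR adjusted p = 0.475). On this scale Clec9a was at 28.8, 22.1, 16.1 and 38.3 with vehicle and 60.9, 49.3, 44.0 and 61.3 with HPβCD. Irf8 was at 325, 250, 388 and 404 with vehicle and 458, 527, 525 and 446 with HPβCD. All 4 HPβCD animals were thus above all 4 vehicle animals for both genes, which made 2 of 10 members, beside 5.99% of all tested genes with HPβCD higher. This share, like those of the ratios below, counts only the direction in which the members separated. The share in either direction can only be equal or larger and is not given here. No test was run on these ratios. Leaving out a library could not undo the separation of either gene, because the ratios of the remaining animals stay the same.

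The separation depended on the leukocyte gene used, a choice added after the data were seen. Per Cd53 count, Irf8 and Zbtb46 were lower in every HPβCD animal than in every vehicle animal (2 of 10, beside 23.8% of all tested genes with HPβCD lower), so Irf8 turned its direction. Per Laptm5 count, Flt3, Zbtb46, Fscn1 and Clec10a were lower (4 of 10, beside 46.2%), and per Coro1a count Xcr1 alone was higher (1 of 10, beside 8.27%). The reference genes had log2 fold changes of 0.52 for Cd53, 0.79 for Laptm5 and -0.29 for Coro1a. edgeR called none of them (adjusted p = 0.177, 0.0673 and 0.481). DESeq2 and limma-voom called Laptm5 higher (adjusted p = 0.00565 and 0.0116), and its CPM did not overlap between groups. The part of the reference genes' own differences in the ratios was not tested. The reference genes are shared by B lymphocytes and other leukocytes. The summed level of 8 B lymphocyte genes was 150 to 556 CPM with vehicle and 48.3 to 136 CPM with HPβCD, with none of the 8 at 0. The part of B lymphocytes in the ratios was not tested.

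**Figure D4:**
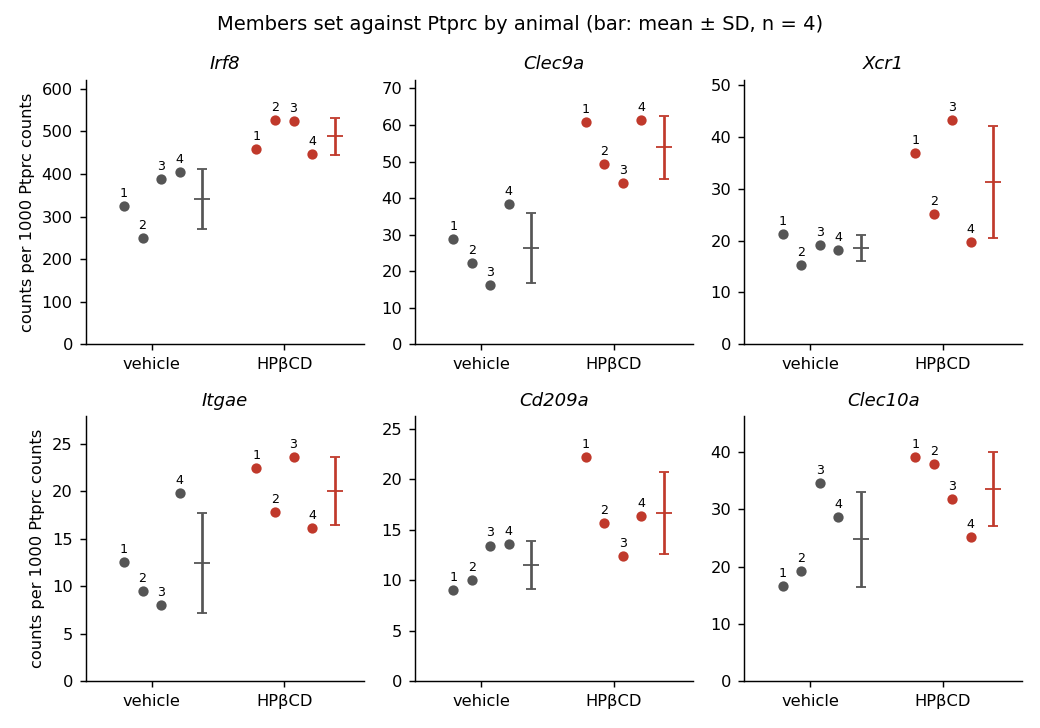
Counts of 6 members per 1000 counts of Ptprc in each animal, with linear axes from 0. Points are animals labelled by number, and bars give mean ± SD (n = 4). Clec9a (16.1 to 38.3 against 44.0 to 61.3) and Irf8 (250 to 404 against 446 to 527) do not overlap between vehicle and HPβCD, whereas the other 4 do.

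Other genes of the same cells were compared from lists. Of 10 further type 1 genes, edgeR called 0 (median log2 fold change -0.09), with 2 at an unadjusted p under 0.05, 0 called by DESeq2 and 1 lower by limma-voom. Their most abundant genes were Id2, a factor that dendritic cell precursors need, at -0.02, Wdfy4, needed for cross-presentation, at 0.24, and the adhesion gene Cadm1 at -0.70. Cadm1 and Rab7b were the 2 at an unadjusted p under 0.05. Rab7b, looked at after its values were seen, was at 0.59 (edgeR adjusted p = 0.148). It was the 1 gene of this list whose groups did not overlap. Of 9 tested type 2 genes, edgeR called 0 (median 0.01), with 4 at an unadjusted p under 0.05, while DESeq2 called 1 higher and 2 lower and limma-voom 1 higher and 3 lower, and 3 did not overlap between groups. Over all tested genes these shares were 27.8%, 17%, 21.9% and 16.8%. Sirpa, an inhibitory receptor that binds CD47, was at 0.20, Notch2, whose signal type 2 cells depend on, at 0.55, and the lectin gene Clec12a at -0.04. Irf4, a transcription factor of type 2 cells and also of B lymphocytes and plasma cells, was singled out after its values were seen: 58.8, 79.7, 47.3 and 46.1 CPM with vehicle and 29.5, 10.2, 22.1 and 18.0 CPM with HPβCD. The groups did not overlap, yet the log2 fold change of -1.54 ± 0.32 missed the threshold in edgeR (adjusted p = 0.0516) and passed it in DESeq2 (adjusted p = 0.000567) and limma-voom (adjusted p = 0.0180). Klf4, a transcription factor of type 2 cells and also of monocytes and endothelium, likewise singled out, did not overlap in the other direction. It was at 13.3, 16.2, 10.3 and 18.1 CPM with vehicle and 29.9, 33.0, 24.5 and 21.04 CPM with HPβCD, a log2 fold change of 0.90 ± 0.22 (adjusted p = 0.0636 in edgeR, 0.00537 in DESeq2 and 0.0102 in limma-voom). Of 6 relatives of Cd209a, 1 passed the filter, Cd209f, a lectin gene, at -0.98 (edgeR adjusted p = 0.0867; called lower by limma-voom and not by DESeq2).

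Growth factors, ligands and the antigen-presenting machinery were also compared. Of 12 tested genes of dendritic cell development, edgeR called 0 (median 0.10), with 2 at an unadjusted p under 0.05, 1 higher by DESeq2, and 1 higher and 1 lower by limma-voom. Csf1r, the receptor for the macrophage growth factor, was at 0.13, the transcription factor gene Zeb2 at 0.04, and Itgax, which encodes CD11c, at 0.51. Of the ligands, Xcl1, which XCR1 binds, had at most 17 counts in a library and was not tested, and Cdh1, the E-cadherin that CD103 binds, was at 0.07 and called by none of the 3 tools. Of 8 MHC class II genes, edgeR called 0 (median 0.02), with 0 at an unadjusted p under 0.05, 0 by DESeq2 and 1 lower by limma-voom. H2-Aa was at 0.13, H2-Ab1 at 0.52 and the invariant chain gene Cd74 at -0.14.

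Among 17 tested genes of mature dendritic cells, edgeR called 1 higher and 0 lower (median -0.36), DESeq2 1 higher and 2 lower, and limma-voom 1 higher and 6 lower. Over all tested genes the shares were 1.95%, 17% and 21.9%, the background also for the lists that follow. The 2 lower by DESeq2 were Adam23 (97.0, 21.9, 188 and 22.9 CPM with vehicle) and Cacnb3 (20.6, 6.95, 141 and 8.71 CPM). Both were highest in vehicle animals 1 and 3, which had the highest neuron sums, and limma-voom called neither (adjusted p = 0.205 and 0.985). The part of neuron transcripts in the levels of these 2 genes was not tested. Cd80, a costimulatory ligand for CD28 and CTLA-4 that activated macrophages and B lymphocytes also carry, rose with HPβCD. It measured 9.39, 15.5, 7.87 and 20.01 CPM in vehicle infarcts and 31.1, 36.7, 43.3 and 32.6 CPM in HPβCD infarcts, without overlap. The log2 fold change was 1.44 ± 0.30 (95% interval 0.77 to 2.12; edgeR adjusted p = 0.0499). Leaving out vehicle animal 3 kept the call (1.27; edgeR adjusted p = 0.0346), and leaving out any other library lost it, at 1.32 to 1.73 with edgeR adjusted p between 0.0503 and 0.175. The call was also lost with library totals alone (1.35; edgeR adjusted p = 0.0623) and with the neuron score as covariate (1.10; edgeR adjusted p = 0.118), and DESeq2 and limma-voom made it (adjusted p = 0.000463 and 0.00855). The replicate block lost it as well (1.53; edgeR adjusted p = 0.0874), and leaving out both vehicle animals 1 and 3 kept it (1.04; edgeR adjusted p = 0.0450). Several of the edgeR fits called almost no gene of any kind, beside 287 with all 8 libraries. The count was 0 without vehicle animal 1 or 4 or HPβCD animal 2 or 3, and 4 without HPβCD animal 1. It was 11 with library totals alone, 9 with the replicate block and 2 with the neuron score. In those fits the loss is not particular to Cd80. The most abundant genes of the list were Cd83, a surface marker of mature cells, at -0.36, Cd274, which encodes PD-L1, at 0.18, and Tmem123 at -0.10. Looked at after their calls were seen, the 6 lower by limma-voom were Ccr7, Cd86, Cd40, Il4i1, Cd83 and Il12b. Their edgeR log2 fold changes ran from -0.97 (Il12b) to -0.36 (Cd83), and neither edgeR nor DESeq2 called any of them. Ccr7, which guides mature dendritic cells to lymph nodes, was looked at after its values were seen and was at -0.90 ± 0.31. Its adjusted p was 0.110 in edgeR, 0.0636 in DESeq2 and 0.00596 in limma-voom. Vehicle animal 3, the highest for Fscn1, was the lowest vehicle animal for Ccr7, at 4.48 CPM beside 9.16, 11.5 and 9.68 CPM in vehicle animals 1, 2 and 4.

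Of 12 tested plasmacytoid genes, edgeR called 0 higher and 1 lower (median -0.53), and DESeq2 and limma-voom each called 4 lower. Among the 4 by DESeq2 was Pacsin1, at 24.1, 2.47, 124 and 2.26 CPM with vehicle, highest in the 2 animals with the highest neuron sums. limma-voom did not call it (adjusted p = 0.264), and the part of neuron transcripts in its level was not tested. The called gene was Siglech, a sialic acid lectin of plasmacytoid cells that microglia also express. It fell from 31.3, 12.1, 31.5 and 19.0 CPM to 3.51, 2.57, 8.26 and 3.33 CPM (log2 fold change -2.40 ± 0.45; edgeR adjusted p = 0.0483). The call remained without vehicle animal 2 or 3 and was lost without any 1 of the other 6 libraries (edgeR adjusted p 0.0659 to 0.175). Without both vehicle animals 1 and 3 it was at -1.79 (edgeR adjusted p = 0.0889), and the call was lost with library totals alone (-2.48; edgeR adjusted p = 0.0539) and with the neuron score as covariate (-1.71; edgeR adjusted p = 0.0985). The replicate block lost the call as well (-2.45; edgeR adjusted p = 0.0690). Several of these fits called few or no genes of any kind, as given for Cd80. Tcf4, a transcription factor of plasmacytoid cells that many other cells express, was at -0.06, and Tlr7 and Tlr9, sensors of nucleic acids, were at 0.43 and 0.13. Spib, which B lymphocytes also express, Ccr9 and Cox6a2 were at -0.99, -0.02 and -0.99. edgeR called none of the 3 (adjusted p 0.111 to 0.975) and neither did DESeq2, while limma-voom called Spib and Cox6a2 lower (adjusted p = 0.0128 and 0.0408). Ly6d, also a B lymphocyte gene, and Irf7, an interferon-induced factor, were looked at after their values were seen. Ly6d was at -1.65 without overlap (adjusted p = 0.0658 in edgeR, 0.00232 in DESeq2 and 0.0151 in limma-voom) and Irf7 at -1.88 (0.0744, 0.00276 and 0.0563).

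**Figure D5:**
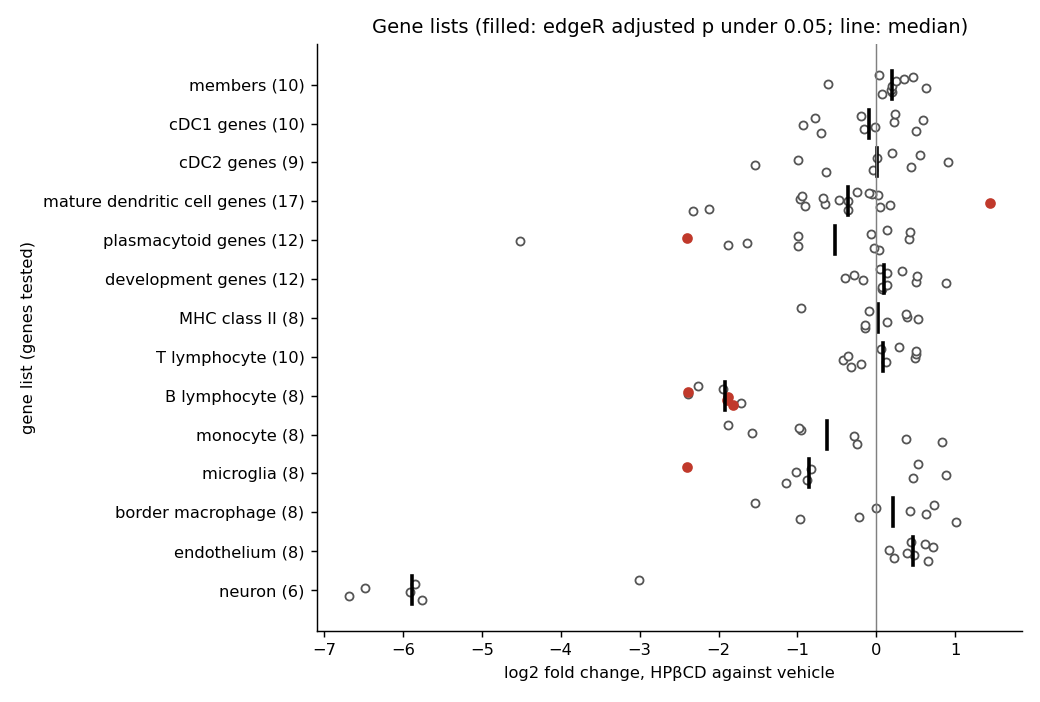
log2 fold change of HPβCD against vehicle for every tested gene of 14 lists, 1 row per list with the number tested in parentheses. Filled red circles passed an edgeR adjusted p under 0.05, open circles did not, and black lines are medians. Members lie between -0.62 and 0.63 with a median of 0.20, the B lymphocyte list has a median of -1.92 and the neuron list one of -5.88.

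Lists for other cells give the background against which these genes were read. All 8 B lymphocyte genes were at an unadjusted p under 0.05 and edgeR called 4 of them lower, Cd79a, Cd79b, Blk and Fcer2a, while DESeq2 and limma-voom each called all 8 lower. These 4 calls were lost when vehicle animal 1, vehicle animal 4 or any 1 HPβCD animal was left out (edgeR adjusted p 0.0590 to 0.177), and those of Cd79a and Fcer2a also without vehicle animal 2 (0.0518 and 0.0506). With library totals alone, the neuron score as covariate or the replicate block, edgeR called none of the 4 (adjusted p 0.0547 to 0.118). Without both vehicle animals 1 and 3 it called Cd79a, Blk and Fcer2a (adjusted p 0.0336 to 0.0395) and not Cd79b (0.0738). In several of these fits few or no genes of any kind were called, as given for Cd80. Of 8 microglia genes edgeR called 1 lower (Siglech; median -0.85), with 6 at an unadjusted p under 0.05, 1 higher and 3 lower by DESeq2, and 1 higher and 5 lower by limma-voom. It called 0 of 10 T lymphocyte genes (median 0.09), 0 of 8 border macrophage genes (0.21), 0 of 8 monocyte genes (-0.62), 0 of 8 endothelial genes (0.46), 0 of 4 leukocyte genes (0.11) and 0 of 6 tested neuron genes (-5.88). At an unadjusted p under 0.05 these 6 lists had 1, 4, 3, 3, 2 and 6 genes. DESeq2 called 1, 2, 2, 2, 1 and 5 of them, and limma-voom 2, 2, 3, 4, 1 and 0. T lymphocyte genes summed to 128 to 192 CPM with vehicle and 111 to 277 CPM with HPβCD, where the highest library was HPβCD animal 3, the same animal that was highest for Itgae, Irf8, Xcr1, Flt3, Batf3 and Clec10a. The part of T lymphocytes in the level of Itgae was not tested.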

How the data were processed

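The authors trimmed reads with Trimmomatic 0.32, aligned them to GRCm38 with STAR 2.5.2b and counted them per gene with htseq-count. The HTSeq version, its strand option and the annotation release are not given in the sources used here. The deposited values are raw counts per gene without normalization, 1 table per animal. Reads assigned to no gene (26.6% to 36.6%, mostly alignments to several places) were left out of totals and tests. Libraries held 16.6 M to 32.9 M gene counts. No batch is named in the labels, and no 2 libraries agreed within sampling noise (lowest chi-square per degree of freedom 18.9).

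Symbols matched 45143 of 46078 identifiers, and coordinates are those of GENCODE M21. HPβCD and vehicle were compared with edgeR 4.0.16 in R 4.3.3 (robust quasi-likelihood F test, TMM factors, filterByExpr, no covariate), with Benjamini-Hochberg adjustment over 14736 genes. Each standard error is the absolute log2 fold change divided by the square root of F. CPM are counts scaled by the library total and TMM factor, and a prior count of 2 was added for log2 values. The procedure was tested on simulated data. Alternatives were DESeq2 1.42.0 (the test the study used), limma-voom 3.58.1 (with library quality weights throughout), RLE factors, library totals alone, no filter, a replicate block, a neuron score as covariate, each library left out, and vehicle animals 1 and 3 left out. These 2 animals were picked for their neuron transcripts in an earlier analysis.

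The 10 members, the lists and the rules were chosen with earlier results of these data known. Named from each list were called genes and the 3 with the highest mean CPM, and for likeness the gene with a mean of at least 1 CPM and the highest Pearson r. Genes named outside this rule are marked in the text or were fixed as plasmacytoid markers with the design. Intervals are 95% confidence intervals of the log2 fold change between the groups from the edgeR fit, and SD describes the spread between animals. Flt3l, the ligand of FLT3, was not analysed here.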

Additional observations from a re-analysis of the deposited data

Results flagged for a closer look

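In groups of 4 animals, a value was picked out when its gap to the nearest other animal exceeded 0.829 of the group's range. Of 42 groups of values searched, 4 met this, where chance gives about 1 in 20, or 2.1. Clec9a in vehicle animal 3 was at 2.54 CPM, with the other vehicle animals at 9.22 to 10.2 CPM. Irf8 in HPβCD animal 3 was at 154.9 CPM, with the others at 94.6 to 105 CPM. Fscn1 per 1000 Ptprc counts was 902.5 in vehicle animal 3 and 120 to 244 in the other vehicle animals. Vehicle animal 2 had 32.9 M gene counts, and the other vehicle libraries 16.6 M to 17.7 M.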

How the results depend on the processing

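No member was called under any alternative, with edgeR, DESeq2 or limma-voom, and the lowest adjusted p was 0.108. Of 160 alternative log2 fold changes, 136 kept their direction and 24 reversed, none for Clec9a, Xcr1 or Irf8, whose values shrank to 0.227 (Clec9a, neuron score), 0.0865 (Xcr1, without HPβCD animal 3) and 0.00689 (Irf8, limma-voom). With 1 library left out, Clec9a ranged from 0.34 to 0.78, Xcr1 from 0.0865 to 0.65 and Irf8 from 0.0719 to 0.34. Reversed were Flt3 (-0.0314), Zbtb46 (-0.0753), Cd209a (-0.0024) and Itgae (-0.0949) with limma-voom, Zbtb46 (-0.0538) and Batf3 (-0.0122) with library totals alone, which shifted the median of all genes by -0.08, and Zbtb46 (-0.15), Cd209a (-0.13), Fscn1 (0.17) and Clec10a (-0.0062) with the neuron score. Without vehicle animals 1 and 3, Flt3 (-0.0197), Zbtb46 (-0.11), Cd209a (-0.0924), Fscn1 (0.0236) and Clec10a (-0.0686) reversed. Leaving out 1 library gave -0.0675 to 0.39 for Flt3, -0.0261 to 0.14 for Zbtb46 and -0.20 to 0.29 for Batf3. The count of called genes was 2899 with DESeq2, 3232 with limma-voom, 11 with library totals alone, 2 with the neuron score, and 0 to 629 with 1 library left out, and the cause was not tested. With the replicate block 9 genes were called, Batf3 was at -0.0362, and Fscn1 was at -0.56 with an unadjusted p of 0.00807 (adjusted 0.108). Same-numbered animals deviated together with r of -0.26, 0.24, 0.33 and 0.10, so the numbers were not taken as pairs. Groups did not overlap in CPM for 0 to 1 members with 1 library left out: Clec9a without HPβCD animal 2 and Fscn1 without HPβCD animal 3, where Fscn1 was at -0.90 (unadjusted p 0.0476, edgeR adjusted p 0.205). Per Ptprc the count was 2 to 3 with 1 library left out, where it could only stay or rise. It was 1 per Coro1a and 4 per Laptm5, and all of these settings were added after the data were seen. The 95% intervals of all 8 libraries reached 2.84-fold for Clec9a, 2.55-fold for Xcr1, 2.44-fold for Itgae and 1.97-fold for Batf3, and 0.356-fold for Fscn1, so changes of these sizes could not be told from none.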
